A study of Mus musculus with 27 samples.

Results

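The data are RNA-seq counts of CD11b+ cells sorted by flow cytometry from 2 brain areas of mice, the hippocampus (HC) and the prefrontal cortex (PFC). The libraries compared here are the 15 of the minocycline experiment, 8 of HC and 7 of PFC, out of 27 in the series, and they were chosen by their labels alone. All came from the strain labelled C57BJ6. NAIVE mice (2 libraries per region) are the control group of that label, CUMS mice (3 of HC, 2 of PFC) went through chronic unpredictable mild stress, a rodent model of depression, and CUMS_M mice (3 per region) had the same stress with minocycline, a tetracycline antibiotic. The labels give no vehicle for CUMS, no sex, age or preparation batch, and do not say whether regions came from the same animals or whether libraries were separate animals, so p-values measure only the spread between these libraries. The 12 libraries of the enrichment experiment (6 per region, all stressed, with vehicle or enriched housing) share no sample with these and are used as a second look at the same region difference.

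CD11b, the integrin alpha M chain encoded by Itgam, sits on microglia and also on border-associated macrophages, monocytes and neutrophils, so the sort takes any of these. Microglia are the resident macrophages of brain tissue. They survey it with motile processes, clear dying cells and debris through receptors and lysosomes, and answer danger signals by NF-kB-driven cytokine production. Their expression programme is known to differ between brain areas in degree more than in kind, with immune-alert genes often at a higher level in the hippocampus than in the cortex.

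Totals were 7867323 to 12400922 counts per PFC library and 11806044 to 15278538 per HC library, so HC was sampled more deeply (mean totals 1.37 times those of PFC). Library PFC CUMS_M 3 stood apart from the other PFC libraries. Ttr, the choroid plexus thyroid hormone carrier, was at 566 CPM (counts scaled to a common library total) in that library, at 1.16 to 2.61 CPM in the other 6 PFC libraries and at 529 to 1787 CPM in HC. Results that rest on this library are given with and without it. A separate group of genes, described near the end, differed between regions in every library, some of them from near 0 to abundant. Nothing in the sources used here says whether the columns of both regions were counted with the same gene models. For such genes region and counting cannot be told apart within this experiment.

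Differences are log2 (HC / PFC), with equal weight for the 3 treatments and the standard error (SE) of the fit after ±, and were tested with edgeR's quasi-likelihood test adjusted over all tested genes. Levels are CPM, printed as the lowest and the highest library of a region with its median. Of 14579 tested genes 744 passed an adjusted p of 0.05 (5.1%), 500 of them higher in HC (3.43%) and 244 lower (1.67%). Of 395 tested genes in 16 lists of microglial and myeloid function, 20 were higher in HC and 13 lower, and of 216 tested genes in 9 lists of cellular processes, 4 were higher and 11 lower. That is 8.35% and 6.94% called, beside 5.1% of all tested genes. Several single lists lay near that share, such as microglial identity (3.85%) and lineage transcription factors (4.17%), so their counts show no excess of calls. In all, 48 genes of these lists were called, of which 14 were also called with each of the 15 libraries left out in turn: Marcks, Cebpb, Lpl, H2-DMa, Orai1, Tgfb2, Cd59a, Ch25h, Ticam2, Il1a, Il13ra1, Clec5a, Per1 and Atp5o. Of these 14, H2-DMa and Ch25h lie on chromosomes 17 to 19, whose calls carry a limit described near the end. Without PFC CUMS 1 the 48 became 19, while the 744 calls over all tested genes became 292. Without PFC CUMS_M 3 the 48 became 57, of which 40 were among the 48 (6.62% of all tested genes passed without that library, 4.44% higher in HC and 2.18% lower). In bulk samples, fewer cells of a type and less RNA per cell cannot be told apart.

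The genes that define microglia were at much the same level in both regions. Of 26 tested identity genes 1 was higher in HC and 0 lower, with a median of 0.04 against 0.02 over all tested genes. Cx3cr1, the fractalkine receptor, was at 7636 to 9824 CPM in PFC (median 8739.9) and 7559.9 to 9988 in HC (median 8872), a difference of 0.02 ± 0.05 (edgeR adjusted p = 0.886, 95% interval -0.08 to 0.12). The ranges of the regions overlap almost wholly. P2ry12, the ADP receptor that directs process movement, was at 2699 to 3900.4 CPM in PFC (median 3234) and 2523 to 3325 in HC (median 3012) (-0.12 ± 0.07, adjusted p = 0.397). Its PFC range reached higher, but the interval of the difference, -0.27 to 0.03, included 0. Tmem119, a microglial surface protein, differed by 0.11 ± 0.06 (adjusted p = 0.302), and Csf1r, the receptor that microglia need for survival, by 0.10 ± 0.05 (0.307). Trem2, a lipid-sensing receptor, differed by 0.08 ± 0.05 (0.43), and Itgam, the sorted antigen, by -0.08 ± 0.05 (0.429). The 95% intervals of these 6 genes lay between -0.27 and 0.23, so differences of the size given below for Marcks lay outside each of them. The mean level of the 26 identity genes was 10.7 to 11 (mean log2 CPM) in both regions, so the markers of the labelled cell type were present throughout.

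The identity gene that passed was Cd81, a tetraspanin of the microglial surface. It was at 1444 to 1871 CPM in PFC (median 1597) and 1768 to 2150.2 in HC (median 1978). HC was higher by 0.28 ± 0.06 (adjusted p = 0.00826, 0.053 without HC NAIVE 2), and the ranges of the regions overlap. Among 24 lineage transcription factors the called gene was Cebpb (chr2:167688915-167690418, build GRCm38), which encodes C/EBP beta, a regulator of inflammatory and metabolic genes in macrophages, and the list median was -0.00. In PFC its 7 libraries read 92.9 and 127 CPM (NAIVE), 102 and 77.6 (CUMS) and 78.3, 109.7 and 90.2 (CUMS_M). In HC its 8 libraries read 179 and 148 (NAIVE), 217, 185 and 185 (CUMS) and 120.3, 138 and 139.9 (CUMS_M). Only the lowest HC library, a CUMS_M one, fell below the highest PFC library. Cebpb was higher in HC by 0.74 ± 0.09 (adjusted p = 0.000121), and the test within CUMS gave 1.12 (adjusted p = 0.00136). Genes on the opposite strand cover 20.7% of its exon bases, and the sources used here do not state the strand setting of the counting. Such overlaps also hold for Pdgfa (26.1%), Dusp5 (22.1%), Csf1r (15.1%), Ch25h (11.5%), Il1a (11.2%) and Cyb561a3 (20.1%), whose reads cannot be told apart from those of the partner if strand was not used.

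**Figure D1:**
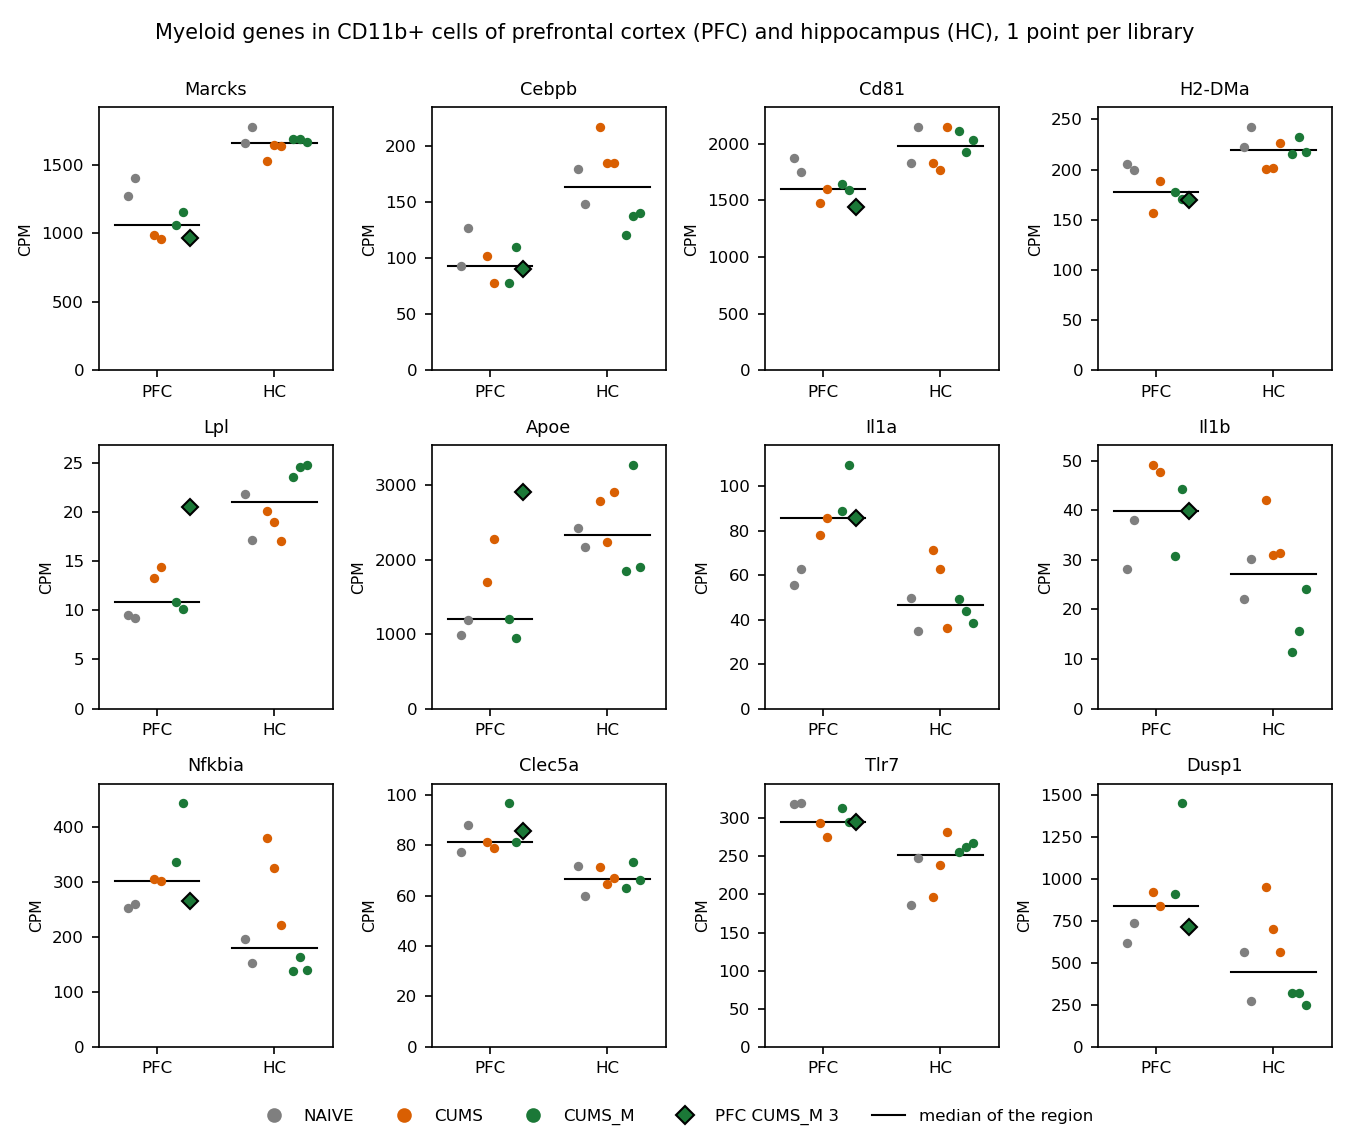
Level in CPM (vertical axis, from 0) of 12 myeloid genes in each library of PFC and HC, coloured by treatment, with the median of each region as a line and library PFC CUMS_M 3 as a diamond. Marcks and Clec5a do not overlap between regions, Lpl overlaps only through PFC CUMS_M 3, and Nfkbia and Il1a are lower in every HC CUMS_M library than in any PFC library.

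Genes of motility and ion flux held the strongest myeloid difference. Of 32 tested members of that list 5 were higher in HC and 0 lower, with a list median of 0.03. Marcks (chr10:37133375-37138920, build GRCm38) encodes a membrane-bound, actin-binding substrate of protein kinase C. Its 7 PFC libraries were at 1274 and 1406 CPM (NAIVE), 990.4 and 958 (CUMS) and 1063, 1158 and 963 (CUMS_M). Its 8 HC libraries were at 1659 and 1777 (NAIVE), 1529.9, 1646 and 1638 (CUMS) and 1687, 1687 and 1662 (CUMS_M). Every HC library was above every PFC library, as in 0.761% of all tested genes (1.25% did not overlap in either direction). Marcks was higher in HC by 0.58 ± 0.05 (adjusted p = 2.39e-07), by 0.36 within NAIVE (adjusted p = 0.0929), 0.72 within CUMS (7.79e-05) and 0.66 within CUMS_M (3.23e-05).

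The other 4 genes of this list conduct ions or hold cells to matrix. Orai1, the pore of store-operated calcium entry, was at 148 to 238 CPM in PFC (median 169.9) and 182 to 245 in HC (median 223) (0.29 ± 0.06, adjusted p = 0.00903). Kcnj2, the inward rectifier potassium channel of microglia, differed by 0.37 ± 0.09 (0.016), Itga6, a laminin-binding integrin chain, by 0.24 ± 0.05 (0.0137), and Trpv4, an osmosensitive cation channel, by 0.84 ± 0.20 (0.0278). For all 4 the ranges of the regions overlap. Orai1 kept its call with each library left out (largest adjusted p 0.0448), and the others lost it without 1 or more libraries (up to 0.067 for Itga6, 0.0664 for Kcnj2 and 0.119 for Trpv4).

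Of 28 tested genes of apoptotic-cell clearance and lipid handling 3 were higher in HC and 1 lower (median 0.14). Lpl, lipoprotein lipase, was at 9.24 to 20.5 CPM in PFC (median 10.8) and 17 to 24.8 in HC (median 21). Of the PFC libraries only PFC CUMS_M 3, at 20.5 CPM, reached into the HC range. It was higher in HC by 0.77 ± 0.14 (adjusted p = 0.00267, 1.4e-05 without PFC CUMS_M 3, at most 0.0156 without any other library). Itgb5, an integrin chain that binds the eat-me signal bridge Mfge8, was higher by 0.19 ± 0.05 (0.0293). Abca1, which exports cholesterol, was lower in HC, at -0.24 ± 0.06 (0.02). Of 37 lysosomal genes 2 were higher and 0 lower (5.41% called, beside 5.1% of all tested genes, median 0.09). These were Lamp1, a membrane glycoprotein (0.22 ± 0.05, 0.0171), and Lgmn, the asparaginyl endopeptidase that trims cathepsins and antigens. Lgmn was at 4796 to 6359 CPM in PFC (median 5652) and 5643 to 6965 in HC (median 6354), a difference of 0.19 ± 0.05 (0.0336), and its call ended without any of 10 libraries (up to 0.149).

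Of 26 disease-associated microglia genes, the set known to rise around plaques and dying neurons, 2 were higher in HC and 0 lower (7.69% called, beside 5.1% of all tested genes, median 0.12). They were Lpl and Ch25h, the oxysterol-producing cholesterol 25-hydroxylase. Ch25h was low everywhere, at 0 to 2.79 CPM in PFC and 0.675 to 2.76 in HC (adjusted p = 0.00757), and both PFC NAIVE libraries had 0 counts. The highest PFC value came from PFC CUMS_M 3. Without that library 4 of these genes passed, adding Axl and Apoe, which were singled out after their values were seen (Apoe is also named in any case). Apoe, the main lipid carrier of glia, was at 945 to 2906 CPM in PFC (median 1196) and 1850.0 to 3269.7 in HC (median 2331). Its PFC libraries split by treatment and library, with NAIVE at 985 and 1194 CPM, CUMS at 1702 and 2276, and CUMS_M at 1196, 945 and 2906, the last being PFC CUMS_M 3. With all libraries Apoe differed by 0.65 ± 0.26 (adjusted p = 0.21), and without PFC CUMS_M 3 by 0.87 ± 0.15 (0.00878; over all 15 single omissions 0.00878 to 0.438). Axl, a receptor tyrosine kinase for apoptotic cells, gave 0.77 ± 0.28 (0.166) and 1.01 ± 0.16 (0.00286; 0.00286 to 0.362 over the omissions). PFC CUMS_M 3 is also the PFC library with choroid plexus transcripts, and their part in the Apoe, Axl and Lpl values was not tested.

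Antigen presentation genes of class II had a median of 0.22 over 15 tested members, with 1 higher and 1 lower. H2-DMa, a chain of the peptide-loading chaperone of class II, was at 156 to 205 CPM in PFC (median 177) and 201 to 243 in HC (median 219.8). HC was higher by 0.28 ± 0.06 (adjusted p = 0.00673), and opposite-strand genes cover 10.4% of its exon bases. Cd86, the costimulatory ligand of T cells, was lower in HC, at -0.22 ± 0.06 (0.0473), and that call ended without any of 12 libraries (up to 0.196). Cd74, the invariant chain, was at 367 to 1081 CPM in PFC (median 666) and 882 to 1808 in HC (median 1190.5) (0.80 ± 0.29, adjusted p = 0.168). The ranges of the regions overlap, with a wide spread within each. H2-Ab1, a chain of the class II molecule itself, gave 0.76 ± 0.27 (0.161) and 0.93 ± 0.23 (0.0455) without PFC CUMS_M 3 (0.0455 to 0.371 over the 15 omissions), and was singled out after its values were seen. In the enrichment experiment the median of this list was -0.11, on the other side of 0. The 16 tested markers of border-associated macrophages, which carry class II and the receptors Folr2 and Stab1, had a median of 0.40 with 16 above 0 and 0 called by edgeR (3 with an unadjusted p under 0.05, 0 by DESeq2). Without PFC CUMS_M 3 the median was 0.59 and 2 passed, Folr2 and Stab1, both higher in HC. The mean level of the list was 4.87 to 5.88 (mean log2 CPM) in HC, 4.23 to 5.59 in 6 PFC libraries and 5.66 in PFC CUMS_M 3, and their part in the class II values was not tested.

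Of 37 tested cytokine genes, cytokine receptors and NF-kB feedback genes 5 were lower in HC and 1 higher (Il4ra, the interleukin 4 receptor, 0.19 ± 0.05, adjusted p = 0.0293), with a median of -0.12. Without PFC CUMS 1 the 6 calls became 2, and without PFC CUMS_M 3 they became 9. Il1a (chr2:129299610-129309972) encodes the alarm cytokine interleukin 1 alpha. It read 55.7 and 62.6 CPM (NAIVE), 78.1 and 85.9 (CUMS) and 89, 109.6 and 85.6 (CUMS_M) in PFC. In HC it read 49.8 and 35.1 (NAIVE), 71.2, 62.7 and 36.3 (CUMS) and 49.2, 44.1 and 38.3 (CUMS_M). Within each treatment every HC library was below every PFC library, while over all treatments the regions overlapped. Il1a differed by -0.71 ± 0.14 (adjusted p = 0.0106), and by -1.11 within CUMS_M (adjusted p = 0.0245). Il1b, its secreted relative, was at 28.1 to 49.1 CPM in PFC (median 39.8) and 11.3 to 42.1 in HC (median 27.1). It differed by -0.66 ± 0.15 (0.022), with -1.17 within CUMS_M (adjusted p = 0.0313), and the call ended without any of 4 libraries (up to 0.0802).

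Nfkbia encodes I kappa B alpha, which is itself induced by NF-kB and shuts it off. It was at 253 to 444 CPM in PFC (median 303) and 138 to 379.9 in HC (median 179.8) (-0.59 ± 0.13, adjusted p = 0.0259). By treatment the difference was -0.56 in NAIVE, 0.02 in CUMS and -1.25 in CUMS_M (adjusted p = 0.0143 within CUMS_M). Nfkbiz, a nuclear I kappa B protein, gave -0.92, -0.07 and -1.63 in NAIVE, CUMS and CUMS_M (-0.87 ± 0.21 over all, 0.0463). Both calls ended without single libraries (5 and 12 of them, up to 0.0971 and 0.139). Il13ra1, a receptor chain for interleukins 4 and 13, was at 156 to 186 CPM in PFC (median 177) and 125 to 152 in HC (median 139) and so did not overlap between regions (-0.33 ± 0.06, 0.00323), as in 0.487% of all genes on the lower side. Tnf gave -0.53 ± 0.21 (0.196) and did not pass.

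Of 32 tested pattern recognition genes 2 were lower and 1 higher in HC (median -0.05). Clec5a, a C-type lectin that signals through DAP12, was at 77.4 to 96.7 CPM in PFC (median 81.5) and 59.8 to 73.3 in HC (median 66.5), with no overlap (-0.32 ± 0.07, adjusted p = 0.00866). Tlr7, the endosomal sensor of single-stranded RNA, was at 275 to 319.8 CPM in PFC (median 295) and 187 to 282 in HC (median 252) (-0.34 ± 0.07, 0.0103, 0.0537 without HC NAIVE 1). Ticam2, an adaptor of TLR4, was higher by 0.37 ± 0.07 (0.00299) but shares 14.5% of its exon bases with another gene of its strand, so the source of its counts is uncertain. Of 28 Fc receptor and ITAM genes 1 was lower, Cd33, an inhibitory sialic acid receptor (-0.21 ± 0.06, 0.0414, up to 0.145 without single libraries). Of 19 tested complement genes, out of 22 listed, 2 were called. Cd59a, which blocks the membrane attack complex, was at 0 to 0.924 CPM in PFC and 1.33 to 3.87 in HC (0.000376). The Cd59a ranges do not overlap, both PFC NAIVE libraries had 0 counts, and no fold is given at this level.

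Growth factor genes of the TGF-beta list, the pathway that maintains microglial identity, gave 3 higher and 1 lower of 27 tested (median 0.10). Tgfb2, a TGF-beta ligand, was at 0 to 2.69 CPM in PFC and 2.44 to 8.09 in HC (2.03 ± 0.40, adjusted p = 0.00598). Pdgfa, a growth factor for oligodendrocyte precursors, differed by 0.30 ± 0.08 (0.0437), the type I receptor gene Acvr1 by 0.20 ± 0.06 (0.0472), and Skil, an inhibitor of SMAD signalling, by -0.18 ± 0.05 (0.0465). The last 3 calls ended without any of 12, 14 and 13 libraries, and without PFC CUMS_M 3 the list held 2 higher and 0 lower. In 4 further lists 0 genes passed the edgeR test. Among the 20 MHC class I genes DESeq2 called 1 and 6 were under an unadjusted p of 0.05, and for the 25 chemokine genes the counts were 1 and 8. For the 15 purinergic genes they were 0 and 1, and for the 44 cytosolic ribosomal protein genes both counts were 0. Their medians were 0.03, -0.01, 0.06 and -0.01, and for the chemokines -0.07 with groups at 0 counts set to a floor of 3. Of 34 type I interferon response genes Trim30a alone passed, lower in HC, at -0.24 ± 0.07 (0.0492). Without PFC CUMS_M 3 Trim30a no longer passed (0.0507) and Ifnar1, a chain of the interferon receptor singled out after its values were seen, passed with 0.24 ± 0.07 (0.0352; 0.0352 to 0.388 over the omissions).

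**Figure D2:**
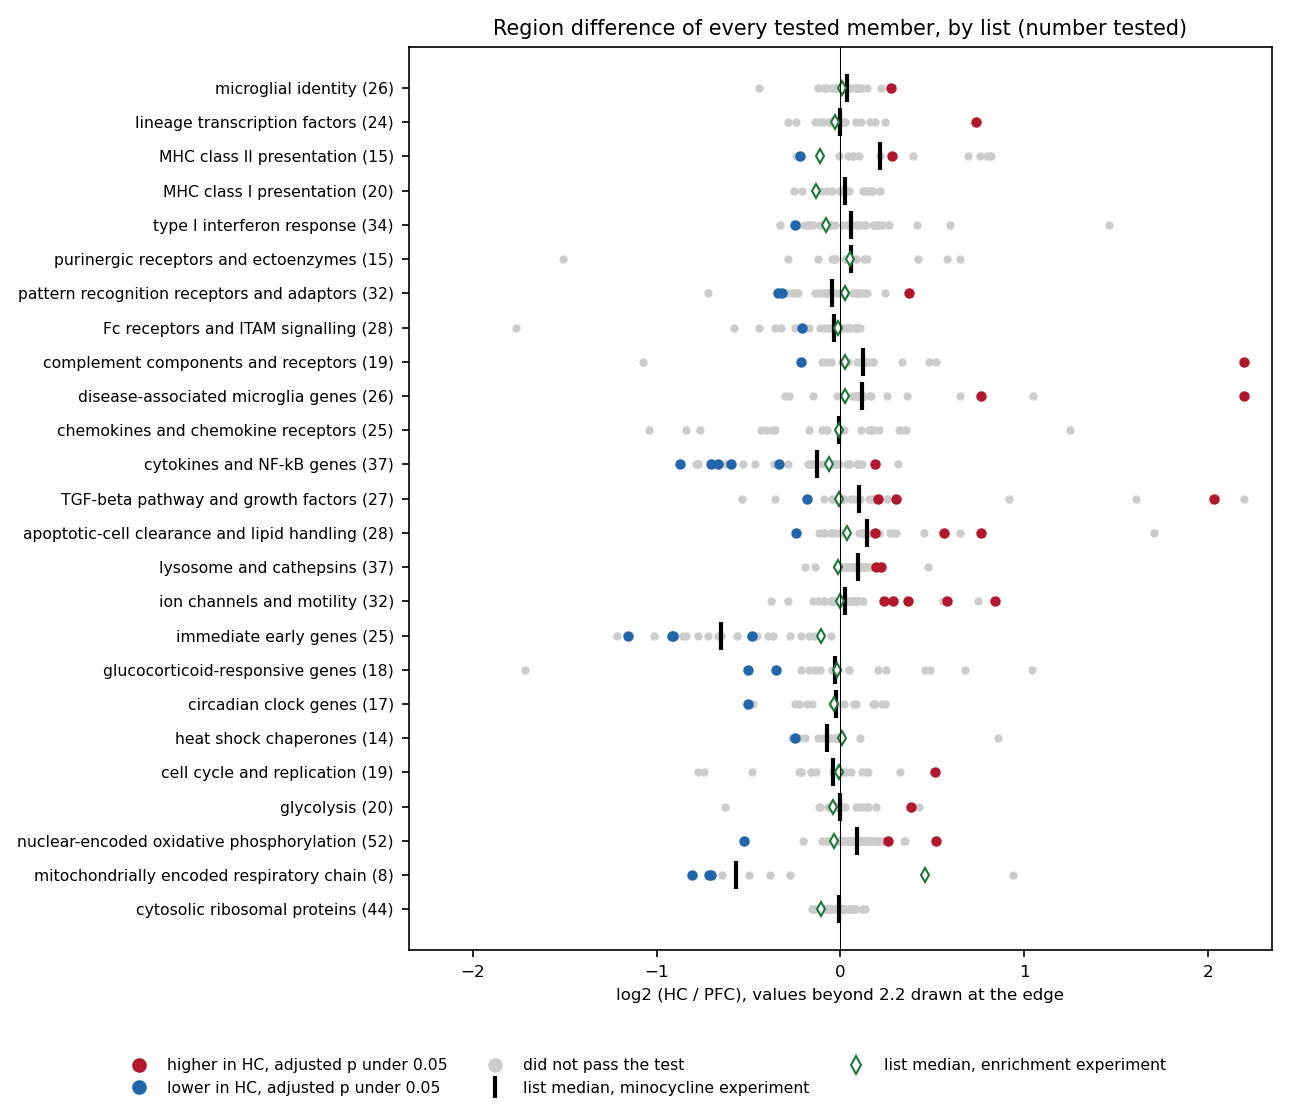
Log2 (HC / PFC) of every tested member of 25 gene lists (horizontal axis), coloured by the edgeR call, with the list median of the minocycline experiment (bar) and of the enrichment experiment (diamond). The immediate early genes and the mitochondrially encoded genes have medians of -0.65 and -0.57, and the identity genes sit near 0.

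Immediate early genes, which cells switch on within minutes of a stimulus, had the lowest median of the 25 myeloid and process lists. Of 25 tested members 4 were lower in HC, 0 higher and 0 above a log2 difference of 0, with a median of -0.65 against 0.02 over all tested genes. The Dusp genes encode phosphatases that switch off MAP kinases. Dusp1 was at 617 to 1452 CPM in PFC (median 838) and 247 to 949.6 in HC (median 444) (-0.91 ± 0.21, adjusted p = 0.0418), Dusp2 differed by -1.16 ± 0.28 (0.0235) and Dusp5 by -0.92 ± 0.20 (0.0116). The other was Fosl2, an AP-1 subunit (-0.48 ± 0.13, 0.0443). Fos, the classical member, was at 1448 to 3352 CPM in PFC (median 1773) and 649 to 2366 in HC (median 995) (-0.77 ± 0.22, 0.0862) and did not pass, and Egr1 gave -0.67 ± 0.22 (0.136). Without PFC CUMS 2 the 4 calls became 0, and without PFC CUMS_M 3 they became 8. DESeq2 called 14 of the 25, but it also called more of all 14579 tested genes (1173, beside 744 by edgeR).

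By treatment, the median of this list was -0.45 within NAIVE, -0.07 within CUMS and -1.40 within CUMS_M, with 24, 14 and 25 of 25 members below 0. The mean level of the list was 7.26 to 8.09 (mean log2 CPM) in HC CUMS, 6.66 to 6.88 in HC CUMS_M, 6.72 and 7.45 in HC NAIVE, and 7.45 to 8.46 over all PFC libraries. The HC CUMS libraries thus overlapped the PFC range, and the HC CUMS_M libraries lay below all of it. In the enrichment experiment the median was -0.10.

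The glucocorticoid-responsive and clock genes were led by Per1 (chr11:69095217-69109960), a clock repressor that glucocorticoids and cAMP induce. In PFC Per1 read 138 and 166 CPM (NAIVE), 169 and 167 (CUMS) and 182, 265 and 209.6 (CUMS_M). In HC it read 127 and 92.3 (NAIVE), 187, 187 and 194 (CUMS) and 88.7, 97.2 and 97 (CUMS_M). Every HC CUMS library was above both PFC CUMS libraries, and every HC CUMS_M library was below every PFC library. Over all treatments Per1 was lower in HC, at -0.50 ± 0.08 (adjusted p = 0.0011). It was also the gene whose region difference varied with treatment by edgeR (0.00686% of all genes), with an adjusted p of 0.0476 and log2 differences of -0.47, 0.17 and -1.22 in NAIVE, CUMS and CUMS_M. That test called 52 genes with DESeq2 (962 by edgeR at p under 0.05 before adjustment), and edgeR called 59 without PFC NAIVE 2. The Per1 call itself ended in 10 of the 15 single omissions (adjusted p from 0.00201 to 0.393) and with the replicate block (0.0798). The next 4 genes by that test did not pass: Zfp410, Bmpr2, D730003I15Rik and Gm42418 (adjusted p = 0.249, 0.367, 0.272 and 0.367). Errfi1, a feedback inhibitor of EGF receptors, was the other glucocorticoid-responsive call (-0.35 ± 0.09, 0.0277; 18 tested, list median -0.03). Of 17 clock genes Per1 alone passed (median -0.02), and of 14 heat shock genes Hspa8, the constitutive HSC70, was lower in HC, at -0.25 ± 0.07 (0.0336).

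**Figure D3:**
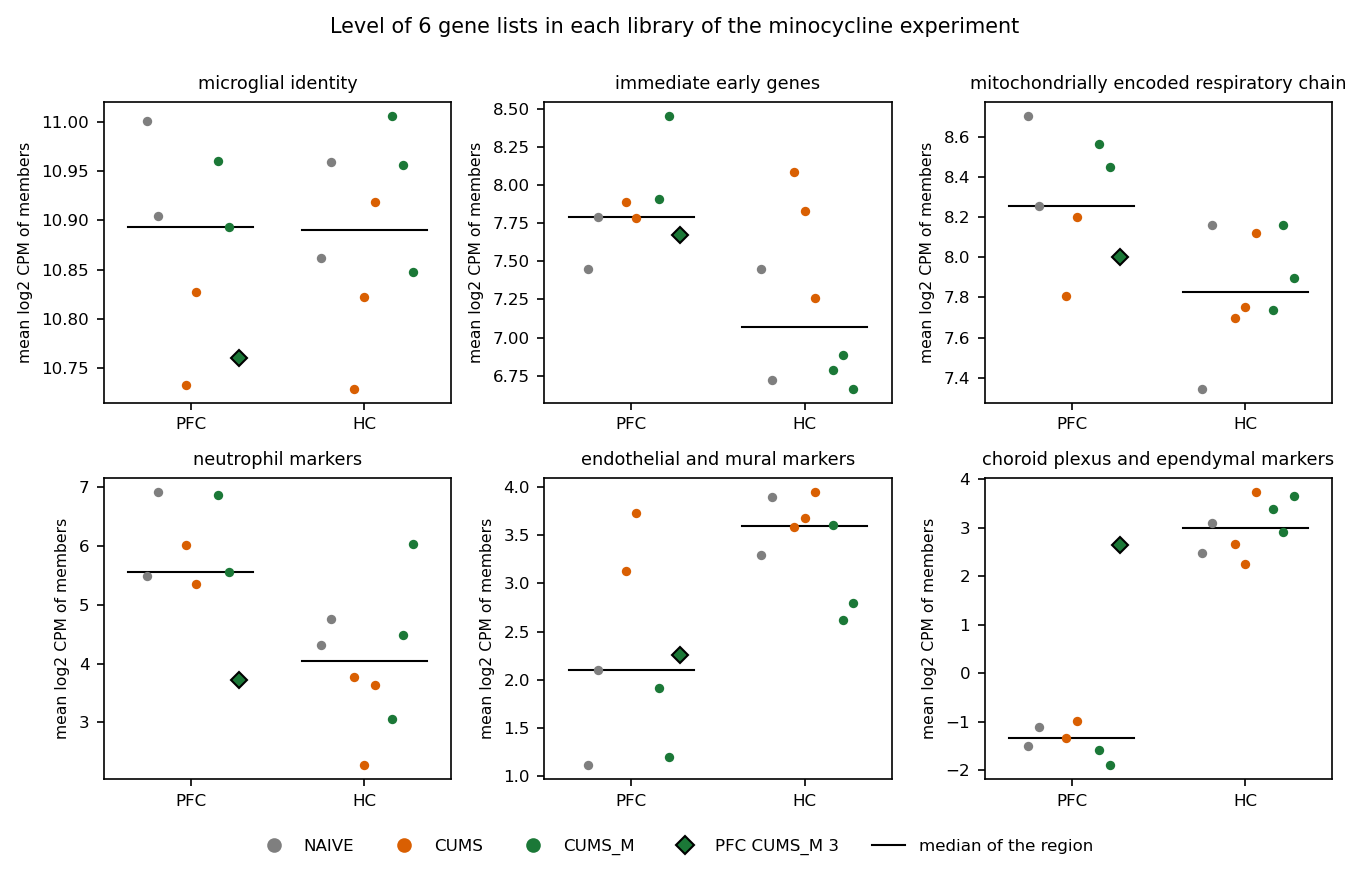
Mean log2 CPM of the members of 6 gene lists (vertical axis, not starting at 0) in each library of PFC and HC, coloured by treatment, with region medians as lines and PFC CUMS_M 3 as a diamond. The immediate early genes lie below all PFC libraries in the 3 HC CUMS_M libraries (6.66 to 6.88), and PFC CUMS_M 3 lies with HC for the choroid plexus markers (2.64) and below the other PFC libraries for the neutrophil markers (3.73).

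Promoter windows of the genes lower in HC show which of them carry textbook response elements. Of 11 such genes in the cytokine, immediate early and glucocorticoid lists, 10 had windows in the RefSeq table of build GRCm38.p6 (12 windows, each from 250 bases before to 50 after a start). The NF-kB pattern (GGGA, any 2 bases, TTCC) on either strand was in 1 of the 10 genes, Nfkbia, and in 1.47% of all 32851 windows of that length. The cAMP response element TGACGTCA was in 2 of them, Dusp1 and Errfi1, and in 1.79% of all windows. The shorter TGACG, which lies inside TGACGTCA, was in 6 of the 12 windows (those of Dusp1, Dusp2 and Dusp5, the second of Errfi1 and both of Per1) and in 20.8% of all windows. The windows of the 3 full matches are printed 5′ to 3′ on the strand of the gene, with the match in capitals, because they hold the full patterns searched. A match is a description of the letters and not a site shown to be in use.
Nfkbia, chr12:55492598-55492897, minus strand: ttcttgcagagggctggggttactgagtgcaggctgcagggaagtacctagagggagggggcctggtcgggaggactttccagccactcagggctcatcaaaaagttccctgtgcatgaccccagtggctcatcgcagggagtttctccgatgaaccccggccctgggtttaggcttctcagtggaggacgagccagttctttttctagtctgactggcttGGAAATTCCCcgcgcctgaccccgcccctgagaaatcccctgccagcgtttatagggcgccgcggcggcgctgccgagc
Dusp1, chr17:26508423-26508722, minus strand: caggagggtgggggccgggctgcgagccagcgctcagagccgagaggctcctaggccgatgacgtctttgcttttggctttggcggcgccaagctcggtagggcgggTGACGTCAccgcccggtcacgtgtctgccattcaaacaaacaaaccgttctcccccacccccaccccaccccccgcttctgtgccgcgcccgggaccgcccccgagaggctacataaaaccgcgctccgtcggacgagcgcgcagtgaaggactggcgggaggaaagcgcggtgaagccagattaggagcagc
Errfi1, second start, chr4:150854820-150855119, plus strand: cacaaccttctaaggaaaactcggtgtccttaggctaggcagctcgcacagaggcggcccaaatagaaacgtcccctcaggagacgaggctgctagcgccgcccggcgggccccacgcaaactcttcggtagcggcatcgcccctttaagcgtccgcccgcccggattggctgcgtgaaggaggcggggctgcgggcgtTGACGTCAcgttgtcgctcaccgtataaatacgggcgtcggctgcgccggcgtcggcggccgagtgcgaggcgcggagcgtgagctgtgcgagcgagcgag
The capitals begin 29, 143 and 51 bases before the start in these windows.

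Of 8 tested genes encoded in mitochondrial DNA, out of 13 listed, 3 were lower in HC and 0 higher, with 7 below 0 and a median of -0.57. mt-Nd2, a subunit of complex I, was at 505 to 901 CPM in PFC (median 615) and 209.8 to 474 in HC (median 373) with no overlap (-0.80 ± 0.19, adjusted p = 0.041). mt-Nd5, another complex I subunit, differed by -0.71 ± 0.14 (0.0163) and mt-Cytb, the cytochrome b of complex III, by -0.71 ± 0.17 (0.041). Without PFC NAIVE 1 the calls became 0, and in the enrichment experiment the list median was 0.46, on the other side of 0, with 0 called. Of 52 tested nuclear genes of oxidative phosphorylation 2 were higher, 1 was lower (5.77% called, beside 5.1% of all tested genes), and the median was 0.09. Uqcr10, a small subunit of complex III, was higher by 0.52 ± 0.12 (0.012) and Atp5d, the delta subunit of ATP synthase, by 0.26 ± 0.06 (0.0215). Atp5o was lower in HC, at -0.52 ± 0.08 (0.000472) and shares 12.3% of its exon bases with another gene. Slc2a1, the glucose transporter GLUT1, was the glycolysis gene that passed (0.39 ± 0.10, 0.0441; 20 tested), and Mcm2, a subunit of the replicative helicase, the cell cycle gene (0.51 ± 0.14, 0.0345; 19 tested).

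Markers of cells outside the microglial lineage were called more often. Of 78 tested markers of astrocytes, oligodendrocytes, neurons, endothelium, choroid plexus and erythroid cells 21 were higher in HC and 4 lower (32.1%, beside 8.35% of the myeloid genes and 5.1% of all genes). The 25 calls became 11 without PFC NAIVE 1, without PFC CUMS 1 or without HC NAIVE 2, 15 without PFC CUMS 2, 33 without PFC CUMS_M 3 and 10 with the replicate block. Endothelial and mural markers gave 7 higher of 14 (median 1.12), among them Ly6c1 (2.03 ± 0.26, adjusted p = 7.03e-05) and the tight junction gene Cldn5, which was at 1.79 to 16.1 CPM in PFC (median 4.19) and 10.4 to 21 in HC (median 18.5). Astrocyte markers gave 5 higher of 14 (median 0.73), such as Aldh1l1, a folate enzyme (1.03 ± 0.19, 0.00327), and neuron markers 4 lower of 14 (median -1.04), such as Tubb3, a neuronal tubulin (-1.63 ± 0.36, 0.0116). Within NAIVE, CUMS and CUMS_M the astrocyte medians were 1.44, -0.13 and 1.06, and the neuron medians -1.53, -1.48 and -0.26. In mean log2 CPM, both PFC CUMS libraries (4.8896 and 5.0303) lay above every HC library (highest 4.8865) for the astrocyte markers. For the neuron markers PFC NAIVE 2 (0.02) and PFC CUMS_M 3 (-0.01) lay below every HC library (lowest 0.16). Choroid plexus and ependymal markers gave 9 higher of 14, 12 without PFC CUMS_M 3 and 1 without PFC NAIVE 1. Their mean level was 2.24 to 3.74 (mean log2 CPM) in HC, 2.64 in PFC CUMS_M 3 and -1.90 to -0.99 in the other PFC libraries. Of 14 listed markers of hippocampal neurons 5 passed the count filter and 1 was called, Dsp, desmoplakin of dentate granule cells, at 0 to 0.959 CPM in PFC and 0.518 to 3.37 in HC (0.00308). Of the cortical neuron markers 9 were tested and 0 called by edgeR (0 with an unadjusted p under 0.05, 0 by DESeq2).

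All 14 neutrophil markers were below 0, with a median of -1.77 and 1 called, Ly6g, which was at 0.872 to 13.4 CPM in PFC (median 6.01) and 0.81 to 5.72 in HC (median 1.43) (-1.72 ± 0.45, adjusted p = 0.041). S100a8, a calprotectin subunit, was at 89.4 to 676 CPM in PFC (median 322) and 26.3 to 278 in HC (median 59.5) (-1.94 ± 0.54, 0.0784) and did not pass. PFC CUMS_M 3 was at 89.4 CPM for S100a8, the lowest of PFC, and without it 6 neutrophil genes passed, all lower in HC. Of 16 monocyte markers 1 was lower, the matrix glycoprotein gene Thbs1 (-0.79 ± 0.20, 0.0424; list median -0.72). Neutrophils are known to express Il1b and Clec5a, and their part in the values of those genes was not tested.

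A fit with the mean level of the 70 non-myeloid markers other than the erythroid ones as a covariate asked how the myeloid calls stood beside them. It left 36 calls in all (0.247%), each of them among the 744, and 2 among the myeloid genes, Marcks and Cebpb. The covariate itself follows region, so this fit removes part of any region difference, and within it Nfkbia and Dusp2 changed sign (0.05 and 0.37, adjusted p = 1 for both). The medians of 10 of the 25 myeloid and process lists also changed sign, among them the immediate early genes (-0.65 to 0.05), the cytokine and NF-kB genes (-0.12 to 0.05), the clearance and lipid genes (0.14 to -0.06), the disease-associated genes (0.12 to -0.04) and the class II genes (0.22 to -0.03). The border-associated macrophage markers went from 0.40 to -0.42.

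Of the 48 genes with an adjusted p under 1e-04, 22 share over 10% of their exon bases with another gene on the same strand (8.9% of such genes passed 0.05, beside 4.99% of all others). Of the 48, 46 do not overlap between regions, beside 1.25% of all tested genes. Because the 48 were picked by this same contrast, that separation largely follows from the choice. Hgs, an endosomal sorting protein, had 3 counts in all PFC libraries together and 98.5 to 112 CPM in HC, and 97.2% of its exon bases are shared. Trf, transferrin, was at 99.3 to 121 CPM in PFC and 1823 to 2289 in HC (63.5% shared). Rps10, a ribosomal protein gene, was at 239 to 371 in PFC and 2.05 to 6.28 in HC (20.6% shared). Qser1, which shares no exon base, was at 31.9 to 40.6 in PFC and had 0 counts in all 8 HC libraries, at least 1354-fold lower against a floor of 3 counts over the region. PFC CUMS_M 3 lay with PFC in each of these 4 genes.

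Among the 26 of these 48 genes that share at most 10% of exon bases, 19 lie on chromosomes 17, 18 and 19. That is 1.29% of the 1468 such genes tested there, against 7 of 12673 (0.0552%) on all other chromosomes. At an adjusted p of 0.05 (edgeR) the shares were 6.95% and 4.76%. Of the called myeloid and process genes sharing at most 10%, 4 lie on these chromosomes: H2-DMa, Ch25h, Dusp1 and Dusp5. The limit on region and counting given below applies to them too. The rule for abundant genes outside the marker lists named 9 genes of chromosomes 17 to 19: higher in HC were Zfp871 (1.02 ± 0.09), Slc8a1, the sodium-calcium exchanger (0.95 ± 0.06), Cyb561a3 (0.94 ± 0.07), Lnpep, an aminopeptidase (0.75 ± 0.08), Rgmb, a BMP co-receptor (0.61 ± 0.07), Pura (0.58 ± 0.07) and Atp6v0c, a proton pump subunit (0.56 ± 0.08), and lower were Zfp91 (-1.37 ± 0.07) and Chd1, a chromatin remodeller (-0.83 ± 0.09). Of 44 of the 48 that were tested in the enrichment experiment, 38 had levels there that lay nearer the HC than the PFC values of the minocycline experiment in both regions. The PFC columns of the minocycline experiment were thus the ones that differed from the rest for most of these genes. Hgs was at 81.5 to 108 CPM and Rps10 at 4.53 to 9.18 in the PFC libraries of the enrichment experiment. In these genes the enrichment PFC libraries thus did not show the PFC levels of the minocycline experiment, and the cause was not tested. Within the minocycline experiment region and counting cannot be told apart. Marcks, on chromosome 10 with 0% of its exon bases shared, is among the 48. Its enrichment medians were 1451 CPM in PFC and 1620 in HC. Both lay nearer the HC median of the minocycline experiment (1661) than the PFC median (1063). Slc22a17, Clk1 and Csrnp1, on other chromosomes, were named by the same rule (0.67 ± 0.13, -0.75 ± 0.14 and -0.77 ± 0.18).

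**Figure D4:**
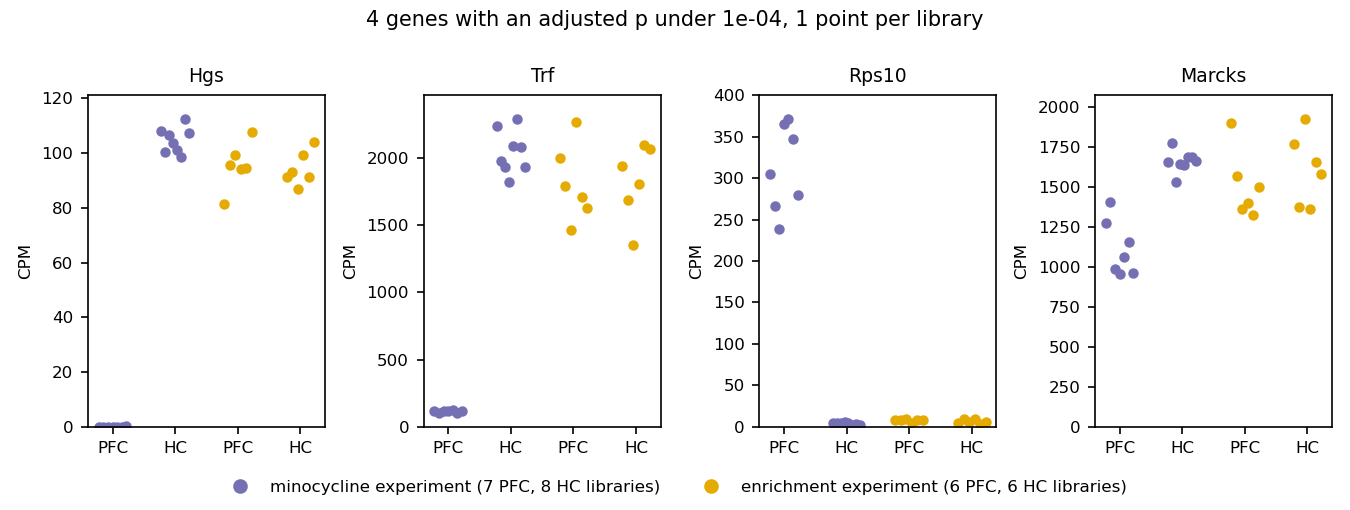
Level in CPM (vertical axis, from 0) of 4 genes with an adjusted p under 1e-04 in every PFC and HC library of the minocycline and of the enrichment experiment, which were scaled separately. Hgs, Trf and Rps10 in both regions of the enrichment experiment lie with the HC libraries of the minocycline experiment in level. Marcks there had medians of 1451 CPM in PFC and 1620 in HC. Both lie nearer the HC median (1661) than the PFC median (1063) of the minocycline experiment.

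Within single treatments fewer genes passed, and CUMS_M held the most in these lists. In NAIVE 88 genes passed (0.604%), of which 2 were in the myeloid and process lists (Cd59a and Ch25h, each with 0 counts in PFC NAIVE). In CUMS 54 passed (0.37%), 3 of them in these lists (Marcks, Cebpb and Atp5o). In CUMS_M 137 passed (0.94%; 0.542% higher and 0.398% lower), 17 of them in these lists. Those higher in HC included Cd81, Il6st, Itgav, Marcks, Orai1 and Tgfb2, and those lower were Il1a, Il1b, Nfkbia, Cd83, Dusp1, Dusp5, Rhob, Per1, Hspa8 and Atp5o. Il6st, Itgav, Cd83 and Rhob fall outside the rule for named genes and were singled out after their values were seen. Groups hold 2 or 3 libraries, and whether any gene other than Per1 differs more in one treatment than in another was not shown by the test of that difference.

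The enrichment experiment did not repeat the calls. Its libraries all came from stressed mice, whereas the minocycline contrast averages NAIVE, CUMS and CUMS_M, so unlike groups are compared. Within CUMS the list medians of the immediate early and of the cytokine and NF-kB genes were -0.07 and -0.01, beside -0.10 and -0.06 in the enrichment experiment. The mitochondrially encoded genes had a median of -0.30 within CUMS and 0.46 in the enrichment experiment. Of 15921 genes tested in the enrichment experiment 0 passed (0% by edgeR, smallest adjusted p 0.9997; 331 with an unadjusted p under 0.05; 0 by DESeq2). All 48 myeloid and process calls were tested there, 20 of them had the same sign, and for 37 the minocycline value lay outside the 95% interval of the enrichment value. Marcks gave 0.10 (95% interval -0.13 to 0.32) there, Cebpb -0.11 (95% interval -0.41 to 0.19), Il1a 0.11 (95% interval -0.16 to 0.38) and Lpl 0.14 (95% interval -0.30 to 0.58). For the early and NF-kB genes the intervals were wide, with -0.27 (95% interval -0.98 to 0.45) for Nfkbia and -0.39 (95% interval -1.55 to 0.77) for Dusp5, and included the minocycline values. Simulated counts at the spread of that experiment gave calls for 89 of 100 genes changed 2-fold and 54 of 100 changed 1.5-fold. Each gene was drawn on its own, so variation shared by many genes of a library, as of choroid plexus transcripts, was not simulated. What would be called in the real libraries is therefore not given by these counts. The changed genes had a mean of at least 5 CPM. Smaller changes, such as that of Cd81 (0.28), and genes at lower levels were not simulated, so for these the simulation cannot say what would be called. Region labels and choroid plexus markers did not go together there: Ttr was at 0.0991, 693 and 694 CPM in PFC VEH, 11.7, 1065 and 218 in PFC EE, 0.283, 0.704 and 194 in HC VEH, and 1859, 465 and 1045 in HC EE. The difference between the experiments was not tested, since their tables were deposited and scaled separately.

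**Figure D5:**
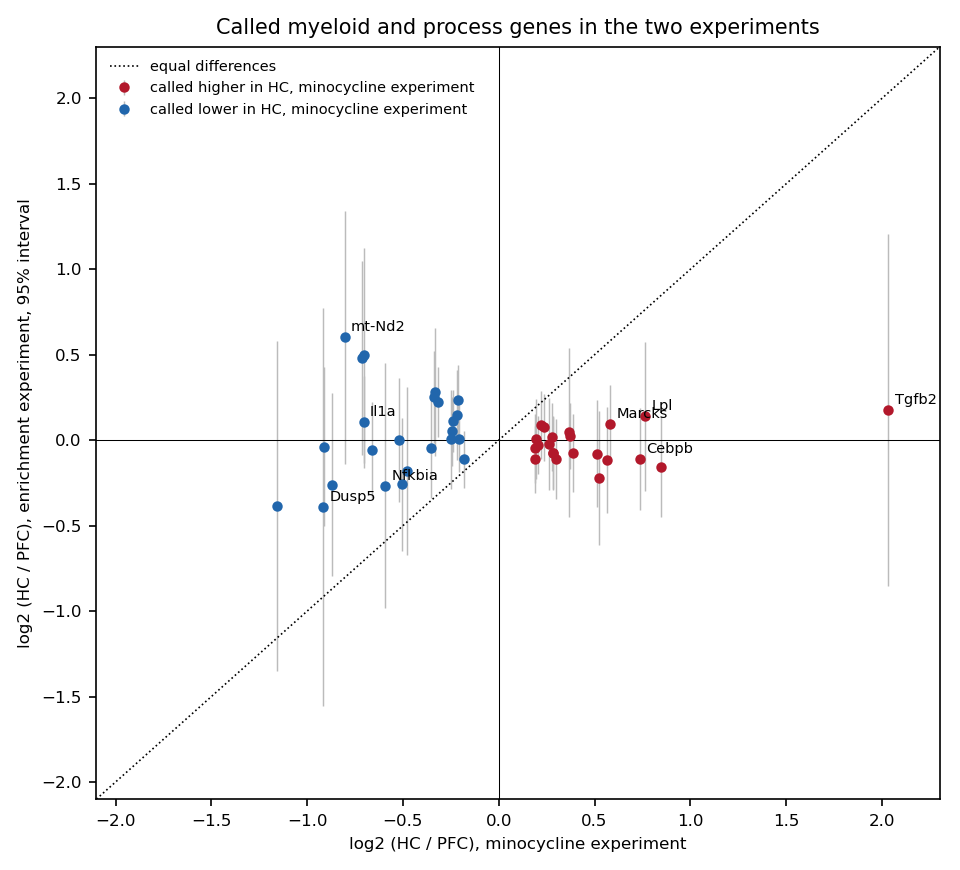
Log2 (HC / PFC) in the minocycline experiment (horizontal axis) and in the enrichment experiment with its 95% interval (vertical axis) for 46 of the 48 called myeloid and process genes, without Ch25h and Cd59a, whose PFC NAIVE libraries had 0 counts. For 37 of all 48 called genes the minocycline value lies outside the enrichment interval, and 20 have the same sign in both.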

How the data were processed

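CD11b+ cells were sorted by FACS and sequenced as paired-end, strand-specific, poly-A selected libraries, per the labels. The authors deposited raw counts per gene in 1 table per experiment. Per the submitters' processing notes the tools were Trimmomatic 0.36, STAR 2.6.1b, Picard 2.17.1, featureCounts 1.5.3 and DESeq2 1.24.0 with builds mm10 and GRCm38. The gene annotation release and the strand setting are not given in the sources used here.

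Counts were fitted with edgeR 4.0.16 (R 4.3.3; quasi-likelihood, robust, TMM scaling, filterByExpr with a minimum count of 10 and a minimum total of 15), with 1 mean per region and treatment. The contrast was the mean of the 3 HC groups minus that of the 3 PFC groups, with Benjamini-Hochberg adjustment over all tested genes and a threshold of 0.05. The enrichment table was fitted on its own in the same way. CPM (counts scaled to a common total) use the TMM-scaled totals, and levels of lists are means of log2 CPM with a prior count of 2. Genes sharing over 10% of their exon bases with another gene of the same strand were set aside from naming. Symbols and exons came from GENCODE M21 tables, which held 53412 of 53412 gene IDs of the minocycline table and 55240 of 55421 of the enrichment table.

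The members, lists and tests were chosen with earlier results of these data known. Named genes were, among called genes that pass the exon limit, the 10 largest rises and 10 largest falls in the myeloid and process lists, up to 4 of each list by p, the 10 largest rises and 10 largest falls with a mean of at least 50 CPM outside the lists of other cells, the 5 smallest p for a difference between treatments, and 10 microglial genes in any case. On simulated counts, drawn for each gene on its own, 74 of 100 genes changed 1.5-fold and 98 of 100 changed 2-fold were recovered in the minocycline design (14579 genes). The changed genes had a mean of at least 5 CPM, and smaller changes were not simulated. Libraries of 1 group differed by 6.19 to 24.7 times the counting noise (chi-square per degree of freedom, 12 pairs), so none was a repeat of another in its group. Libraries of different groups were not compared in this way. Alternatives were other scalings and filters, DESeq2 1.42.0, a replicate block, an additive model, thinning to equal depth, a covariate of other-cell markers and leaving out each library. The fit without exon-sharing genes was chosen after seeing the data. Results for a few genes are not reported here.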

Additional observations from a re-analysis of the deposited data

Results flagged for a closer look

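The mean level of the disease-associated microglia genes in PFC CUMS_M 2 was 6.44 (mean log2 CPM), below 6.71 to 6.87 in the other 6 PFC libraries, a gap above Dixon's 95% critical value. The choroid plexus and ependymal markers in PFC CUMS_M 3 were at 2.64, above -1.90 to -0.99 in the other PFC libraries, and also exceeded that value. These were 2 of 76 list levels tested, where chance gives about 1 in 20. The region difference of Per1 varied with treatment (edgeR adjusted p = 0.0476), a call that ended in 10 of the 15 omissions of 1 library (adjusted p from 0.00201 to 0.393) and with the replicate block (0.0798).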

How the results depend on the processing

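The 744 calls between regions became 1191 with no filter, 428 with a mean of at least 5 CPM, 1173 with DESeq2, 356 with the replicate block and 36 with the covariate of other-cell markers, and 292 (without PFC CUMS 1) to 983 (without PFC NAIVE 2) with single libraries left out. The share of calls higher in HC was 67.2%, 57.2% with at least 5 CPM and 38.9% with the covariate. Within NAIVE the 88 calls became 429 with no filter, 53 with at least 5 CPM, 386 with DESeq2, 29 with the covariate and 47 to 523 with libraries left out. Within CUMS the 54 became 135 with no filter, 115 with DESeq2, 126 with only the groups compared, 26 without exon-sharing genes and 34 to 95 with libraries left out. Within CUMS_M the 137 became 509 with no filter, 464 with DESeq2, 237 with the replicate block, 28 with the covariate and 55 to 303 with libraries left out. The test of a difference between treatments gave 1 call, 0 with scaling by total counts, 122 with no filter, 0 with at least 5 CPM, 52 with DESeq2, 4 with the replicate block (Per1, the call, not among them), 0 with the covariate and 0 to 59 with libraries left out. The causes were not tested. A filter or omission also leaves fewer genes or libraries, although some omissions raised the number of calls. Nfkbia (0.053) and Dusp2 (0.37) reversed with the covariate. Of the 77 named genes that were called, 68 lost the call with the same sign under the covariate, 36 under the replicate block and 21 under the additive model. The deviations of same-numbered libraries correlated at r from -0.00148 to 0.0914 in the minocycline experiment and from -0.278 to 0.438 in the enrichment experiment, so not every pair in either experiment exceeded 0.1 and the numbers were not taken as pairs. Depth was lower in PFC, and thinning to equal depth ended the calls of 4 named genes, Mcm2, Rbfox3, Pdgfa and Acvr1.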
